A study of Mus musculus with 28 samples.

Results

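The comparison set the sperm small RNA of wild type mice given a low dose of alcohol against that of wild type mice given a medium or a high dose. Its members are the 8 alcohol-exposed wild type libraries of 28 in the series, chosen by their treatment labels: 4 low-dose libraries against 2 medium-dose and 2 high-dose libraries pooled into 1 group. No unexposed library entered any test. The 4 wild type controls are given after the exposed values as a description. All libraries used here carry the genotype WT and the cell type sperm, and differ in the labels only in treatment. The amounts of alcohol behind the dose names, the duration and the age of the animals are not stated in the labels. RNA was extracted with Trizol and turned into libraries with a Qiaseq small RNA kit. The count column of medium dose 1 begins with the letter used for the high-dose columns; its medium-dose label was followed, and pooling makes the main comparison the same either way. Nothing in the labels says that libraries came from separate animals, so the p-values measure the spread between these samples, which may be technical.

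Mature sperm hardly transcribe, and their small RNAs are a mixture of miRNAs, fragments of tRNA and rRNA, remnants of piRNAs from spermatogenesis and pieces of longer transcripts. Some of this RNA is loaded in the testis and some is acquired from vesicles of the epididymal epithelium during transit. A miRNA pairs with target mRNAs mainly through its seed, the bases from position 2 to position 8 counted from its 5′ end.

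These miRNA sequences are shown because the results turn on them: miR-190a-5p and miR-296-5p had the lowest unadjusted p of each direction, miR-126a-3p and miR-451a mark endothelial and red blood cells, and miR-16-5p was the most abundant. They come from RefSeq (GRCm38.p6), 5′ to 3′, with the seed in capitals.
miR-190a-5p: uGAUAUGUuugauauauuaggu
miR-296-5p: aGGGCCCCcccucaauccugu
miR-126a-3p: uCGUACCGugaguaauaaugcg
miR-451a: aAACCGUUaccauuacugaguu
miR-16-5p: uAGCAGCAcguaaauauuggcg
No seed is shared among them. The mature miR-190a-5p lies on the minus strand at chr9:67236700-67236721, in an intron of Tln2. The mature miR-296-5p lies on the minus strand at chr2:174267093-174267113. The mature miR-126a-3p lies on the plus strand at chr2:26591402-26591423 within Egfl7, and miR-451a on the plus strand at chr11:78073186-78073207. The same mature miR-16-5p is encoded at chr3:69009918-69009939, in an intron of Smc4, and at chr14:61631936-61631957, in an intron of Dleu2. Of the 266 miRNAs tested, 184 had a mature sequence in the RefSeq table.

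The exposed libraries held between 5991589 and 9207342 counts, and the controls between 1993933 and 11119711. Levels are CPM, each count set relative to a fixed total of reads, taken within miRNAs for miRNAs and within all remaining classes for everything else, after TMM scaling. High dose 1 and medium dose 2 lay at opposite ends of the first principal component of the non-miRNA features, which held 44.1% of the variance. High dose 1 also had the highest summed level of epididymal epithelium transcripts, at 1951 CPM of all counts, against 103 to 557 in the other medium-dose and high-dose libraries. Results that rest on these libraries are given with and without them. In the exposed libraries, 34 miRNAs were listed at 0 in some libraries while well counted in others, in 72 entries, of which 33 were in low-dose and 39 in medium-dose and high-dose libraries; these zeros may be missing entries, and whether they are was not tested. Of these miRNAs, 30 were among those tested; with all miRNAs of this kind left out, 234 were tested and 0 called by edgeR. In bulk RNA, fewer cells of a type and less RNA per cell cannot be told apart.

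No miRNA passed the test between low and pooled medium and high dose. edgeR's quasi-likelihood test called 0 of 266 miRNAs at a Benjamini-Hochberg adjusted p of 0.05 (0% called), with a lowest adjusted p of 0.75. At an unadjusted p under 0.05 it listed 9 miRNAs, 5 higher and 4 lower at low dose, where 13.3 would fall by chance. DESeq2 also called 0, with 16 at an unadjusted p under 0.05. All 4 low-dose libraries lay above all 4 medium-dose and high-dose libraries for 7 miRNAs (2.63% of those tested) and below them for 4 (1.5%). The median 95% confidence interval, not adjusted for the number tested, reached 1.04 on the log2 scale to either side of the estimate. Differences smaller than this were mostly not detectable. Larger ones were not called either, among them 30 miRNAs with a log2 difference of at least 1 in either direction.

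**Figure D1:**
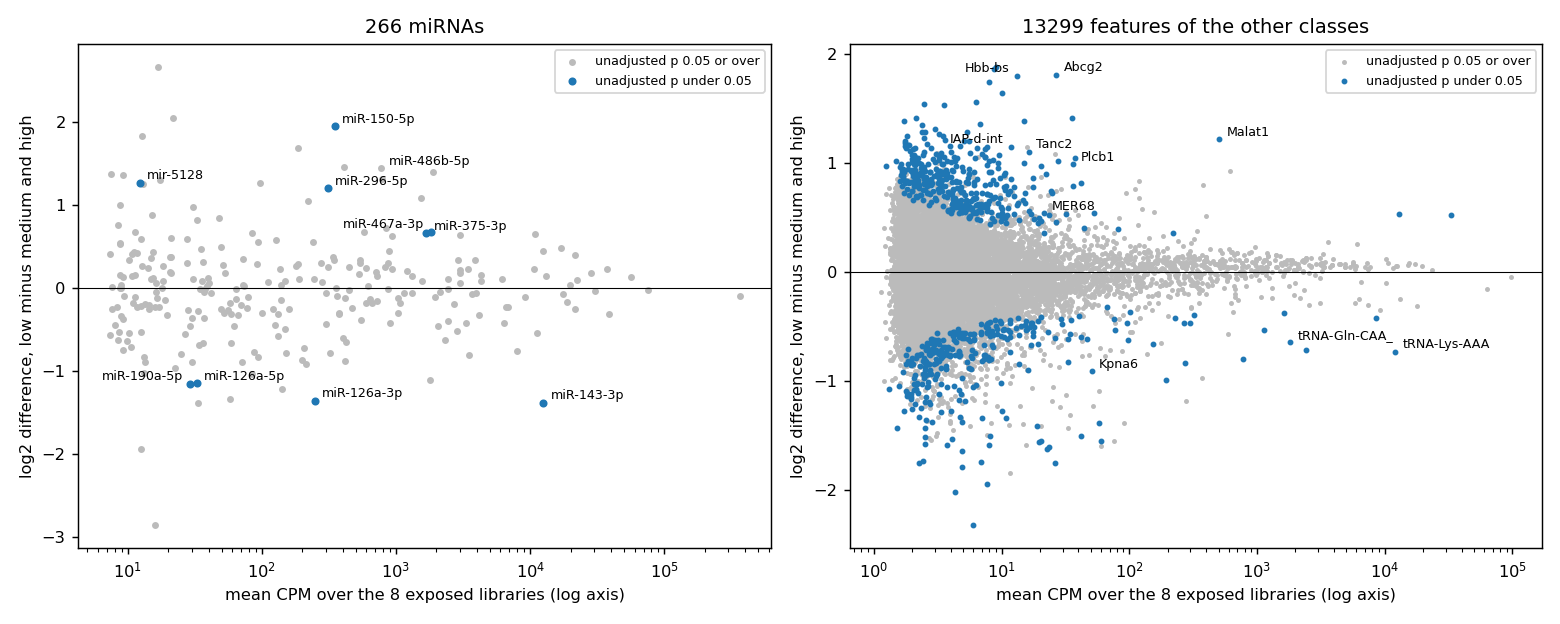
Log2 difference, low minus medium and high dose (y), against mean CPM over the 8 exposed libraries on a log axis (x), for 266 miRNAs (left) and 13299 other features (right). Each point is 1 feature, blue where the unadjusted p was under 0.05 (9 miRNAs and 664 other features); none of them passed the adjusted threshold.

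The 10 miRNAs with the lowest unadjusted p are given as values. miR-190a-5p, encoded within the talin gene Tln2, had 16.7, 19.1, 19.6 and 16.8 CPM in the low-dose libraries, 55.5 and 41.6 CPM at medium dose and 32.3 and 32.0 CPM at high dose. The groups did not overlap, and the 2 medium-dose libraries were the highest. The log2 difference was -1.16 ± 0.28 (SE), with an adjusted p of 0.75 in edgeR and 0.0915 in DESeq2, which gave the same adjusted p of 0.0915 for miR-296-5p and miR-150-5p below. Its 4 controls had 27.8 to 55.8 CPM.

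miR-296-5p, a miRNA of the imprinted Gnas region, had 269, 509, 334 and 614 CPM at low dose, 172 and 189 CPM at medium dose and 256 and 133 CPM at high dose. The groups did not overlap, although the lowest low-dose library and the highest high-dose library were close. The log2 difference was 1.20 ± 0.35 (SE, edgeR adjusted p = 0.75), and the controls had 94.1 to 219 CPM.

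miR-150-5p, abundant in mature lymphocytes, had 204, 573, 270.2 and 1184 CPM at low dose, 97.7 and 139 CPM at medium dose and 155 and 186 CPM at high dose. All low-dose libraries were above the rest, and they spread widely, at 558 ± 447 CPM (SD, n = 4). The log2 difference was 1.95 ± 0.58 (SE, edgeR adjusted p = 0.75). Among controls, 3 had 93.7 to 266 CPM and control 4 was listed at 0.

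miR-126a-3p, an endothelial miRNA hosted by Egfl7, had 159, 126, 85.3 and 183 CPM at low dose, 163 and 198 CPM at medium dose and 688 and 376 CPM at high dose. The low-dose and medium-dose libraries overlapped, and the high-dose libraries stood above both. Its log2 difference was -1.36 ± 0.51 (SE, edgeR adjusted p = 0.88); against medium dose alone it was -0.38 and against high dose alone -1.94. The 4 controls ran from 72.9 to 1340 CPM, with control 4 above every exposed library. The other arm of the hairpin, miR-126a-5p, gave -1.15 ± 0.47.

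miR-143-3p, typical of smooth muscle, had 3381, 4433, 7113 and 12756 CPM at low dose, 15028 and 5609 CPM at medium dose and 24427 and 27373 CPM at high dose. Medium dose 2 lay within the low-dose range, and the high-dose libraries were the highest. The log2 difference was -1.39 ± 0.58 (SE, edgeR adjusted p = 0.88). The 4 controls ran from 2987 to 34194 CPM and covered both groups.

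The remaining miRNAs of the 10 were higher at low dose. mir-5128 averaged 17.5 ± 5.71 CPM at low dose and 7.08 ± 2.44 CPM at medium and high dose (SD, n = 4 each). miR-467a-3p, from the intronic Sfmbt2 cluster, averaged 2254 ± 601 CPM at low dose and 1415 ± 296 CPM at medium and high dose. miR-375-3p, known from pancreatic islets and epithelia, averaged 2055 ± 470.4 CPM at low dose and 1306 ± 306 CPM at medium and high dose. miR-486b-5p, an erythroid miRNA, averaged 1134 ± 523 CPM at low dose and 418 ± 308 CPM at medium and high dose. The groups did not overlap for mir-5128, miR-375-3p and miR-486b-5p, and overlapped for miR-467a-3p; none of the 4 passed the adjusted threshold in edgeR.

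**Figure D2:**
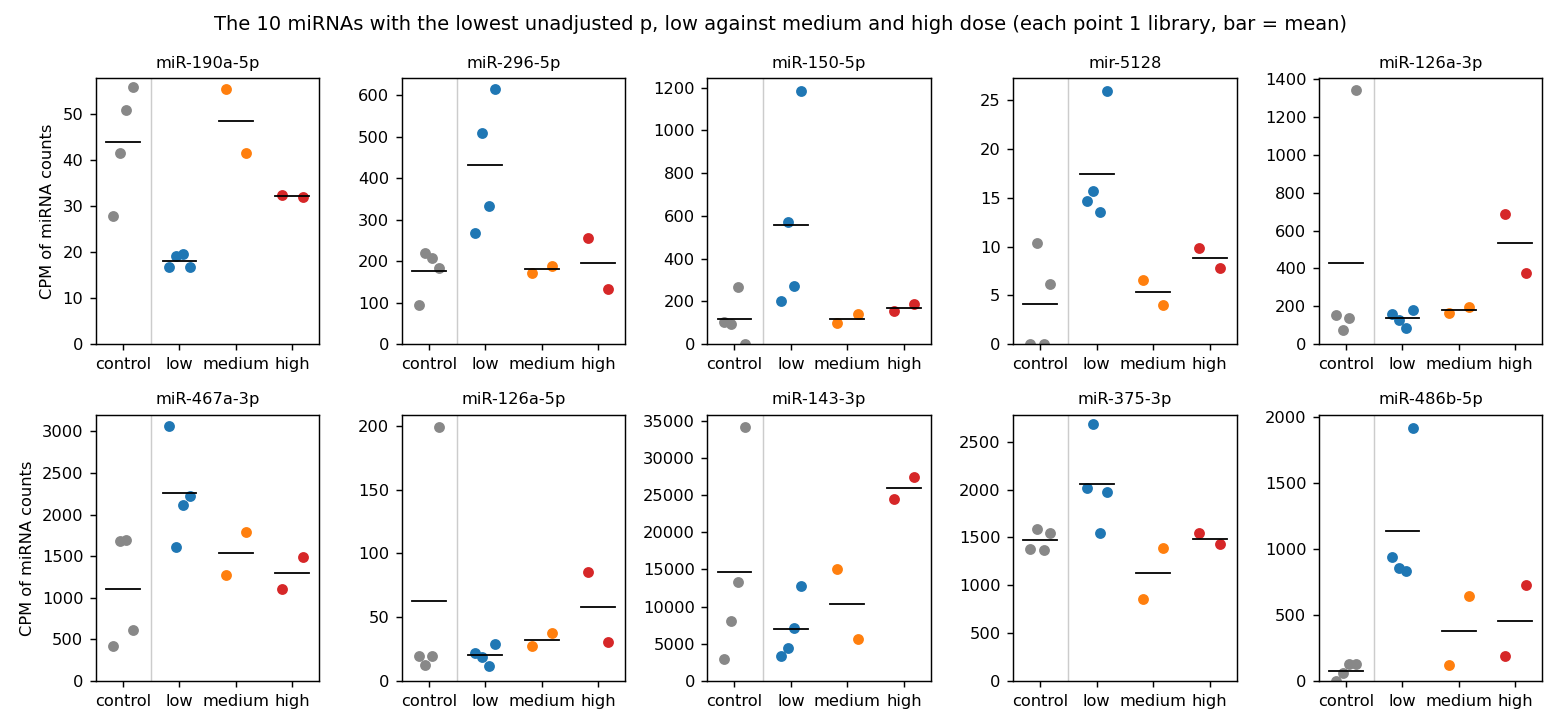
CPM of miRNA counts (y, linear from 0) by dose group (x: control, low, medium, high) for the 10 miRNAs with the lowest unadjusted p; each point is 1 library and each bar a group mean. The 4 low-dose libraries of miR-190a-5p sit between 16.7 and 19.6 CPM, below the medium-dose and high-dose libraries, while miR-143-3p overlaps between groups.

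The 10 most abundant miRNAs had log2 differences between -0.31 and 0.40. miR-16-5p had 384621, 341680.0, 328838 and 353898 CPM at low dose, 299222 and 504026 CPM at medium dose and 297663 and 409970.0 CPM at high dose. The low-dose libraries lay inside the range of the others, with a log2 difference of -0.10 ± 0.19 (SE). Control 4 was listed at 0 for miR-16-5p, while the other controls had 134619 to 295759 CPM. miR-34c-5p, a germ cell miRNA of the miR-34 and miR-449 family, averaged 34466 ± 2609 CPM at low dose and 42841 ± 8808 CPM at medium and high dose, with overlapping groups. miR-425-5p, whose log2 difference of 0.40 was the highest of the 10, averaged 24555 ± 4669.9 CPM at low dose and 18671 ± 4751 CPM at medium and high dose.

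Among miRNA families and clusters, no member was called by edgeR. The Sfmbt2 cluster, a large imprinted cluster within an intron of a Polycomb gene, had 20 of 29 tested members higher and 9 lower at low dose, with a median log2 difference of 0.23 against -0.01 over all miRNAs. Against high dose alone 26 of the 29 were higher, with a median of 0.46, and against medium dose alone 17 were higher, with a median of 0.09. Members are not independent values: at low dose miR-466b-3p had 13884, 9488, 9260 and 13300 CPM and miR-466c-3p 3895, 2652, 2612 and 3780 CPM. Whether they share reads was not tested. In the group of Hox-linked and related miRNAs around miR-10 and miR-125, 8 of 9 tested members were lower, with a median of -0.66; without high dose 1, 4 of the same 9 were lower, with a median of 0.02. miR-10b-5p, encoded within a Hox gene cluster, had 2254, 2798, 2846 and 2236 CPM at low dose, 3987 and 1583 CPM at medium dose and 8844 and 3422 CPM at high dose. The let-7 family had 9 of 11 tested members lower, with a median of -0.16; without high dose 1, 5 of 11 were lower, with a median of 0.14. The miR-34 and miR-449 family had 4 of 6 lower, with a median of -0.18, and without medium dose 2 it had 3 of 6 lower, with a median of 0.12. In this family miR-34b-3p was listed at 0 in 4 exposed libraries, miR-449a-5p in 3 and miR-34c-3p in 2, although each was well counted in the others. The miR-17-92 and paralogue clusters had 6 of 11 higher, and 5 of 11 without high dose 1. Of miRNAs listed as responsive to paternal stress, 3 of 5 were lower, and 2 of 5 without high dose 1.

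Outside the miRNAs, 13299 features were tested: transcript exons and introns, tRNAs and other structural RNAs, transposable elements (TEs) in sense and antisense, piRNA clusters and miRNA hairpins. edgeR called 0 of them (0% called), with a lowest adjusted p of 0.124. It listed 664 at an unadjusted p under 0.05, where 665 would fall by chance. Of these, 374 were higher (2.81%) and 290 lower (2.18%) at low dose. DESeq2 called 1 (0.00752%), the intron feature of Abcg2, and had 470 at an unadjusted p under 0.05. Calls depended on the filter on low counts: without it edgeR called 60 of 44643 features (0.134%), 17 higher and 43 lower. These included Abcg2, Malat1, Tanc2, Plcb1, Kpna6, Hbb-bs, Hba-a1, Hba-a2, Clu, tRNA-Lys-AAA and IAP-d-int, described below, with adjusted p between 4.27e-07 and 0.0458. With high dose 1 left out edgeR called 3 of 13564 (0.0221%), and without both high dose 1 and medium dose 2 it called 1 of 15045 (0.00665%), the Abcg2 intron. The groups did not overlap for 287 features higher at low dose (2.16%) and 173 lower (1.3%). They did not overlap for 218 introns that were higher (3.94%) and 74 that were lower (1.34%), and for 59 exons that were higher (0.941%) and 77 that were lower (1.23%). Introns leaned upward: 296 of 5531 had an unadjusted p under 0.05 and were higher at low dose (5.35%), and 98 were lower (1.77%). Exons leaned downward, with 61 of 6271 higher (0.973%) and 160 lower (2.55%). By chance, 277 introns and 314 exons would fall under this p in both directions together. Without high dose 1 introns still had more higher (373) than lower (215), while exons turned to 232 higher and 124 lower. Without both high dose 1 and medium dose 2, with more features past the low-count filter, introns had 243 higher and 134 lower, and exons had 139 higher and 170 lower.

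The intron reads of Abcg2, which encodes an efflux transporter of the cell membrane, had the lowest p of all features. They stood at 60.4, 38.5, 31.4 and 37.4 CPM at low dose, 11.8 and 8.52 CPM at medium dose and 15.9 and 11.1 CPM at high dose. Every low-dose library was above every medium-dose and high-dose library. The log2 difference was 1.81 ± 0.25 (SE) with an edgeR adjusted p of 0.124. With the replicate number as a block the log2 difference was 2.05 with an edgeR adjusted p of 0.00703, and Abcg2 was the only feature called. Replicate numbers 3 and 4 occur only at low dose, so low dose 3 and low dose 4 do not inform the difference in that fit. Without high dose 1 the adjusted p of the Abcg2 intron in edgeR was 0.00612. Over 18 alternatives, which leave out the fit on an ordered dose score, it ran from 4.27e-07 to 0.992. The reads fell in 15 intron entries, and the mean count was higher at low dose in all 15. The 4 controls had 5.77 to 19.0 CPM, overlapping the medium-dose and high-dose libraries and below every low-dose library.

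Tanc2, a synaptic scaffold gene, had intron levels of 23.4, 21.7, 23.2 and 20.7 CPM at low dose, 8.29 and 7.04 CPM at medium dose and 12.4 and 13.5 CPM at high dose. Plcb1, encoding a phospholipase C, had 63.8, 43.7, 40.5 and 46.2 CPM of intron reads at low dose, 20.98 and 20.4 CPM at medium dose and 29.9 and 26.3 CPM at high dose. For both genes the groups did not overlap and medium dose was lowest. The log2 differences were 1.11 ± 0.22 for Tanc2 and 0.99 ± 0.20 for Plcb1 (SE), each with an edgeR adjusted p of 0.62.

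Malat1, a nuclear long noncoding RNA counted as 1 exon, had 917, 722, 642 and 549 CPM at low dose, 298 and 180.2 CPM at medium dose and 364 and 374 CPM at high dose. The lowest low-dose library was above the highest of the others, and the controls had 123 to 433 CPM. The log2 difference was 1.22 ± 0.23 (SE, edgeR adjusted p = 0.62). Kpna6, encoding an importin alpha, had 27.1, 40.2, 36.3 and 38.0 CPM of exon reads at low dose, 82.0 and 72.6 CPM at medium dose and 50.1 and 61.9 CPM at high dose. Its low-dose libraries were the lowest, with a log2 difference of -0.91 ± 0.20 (SE, edgeR adjusted p = 0.703), and 95.1% of its reads fell in 1 exon.

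**Figure D3:**
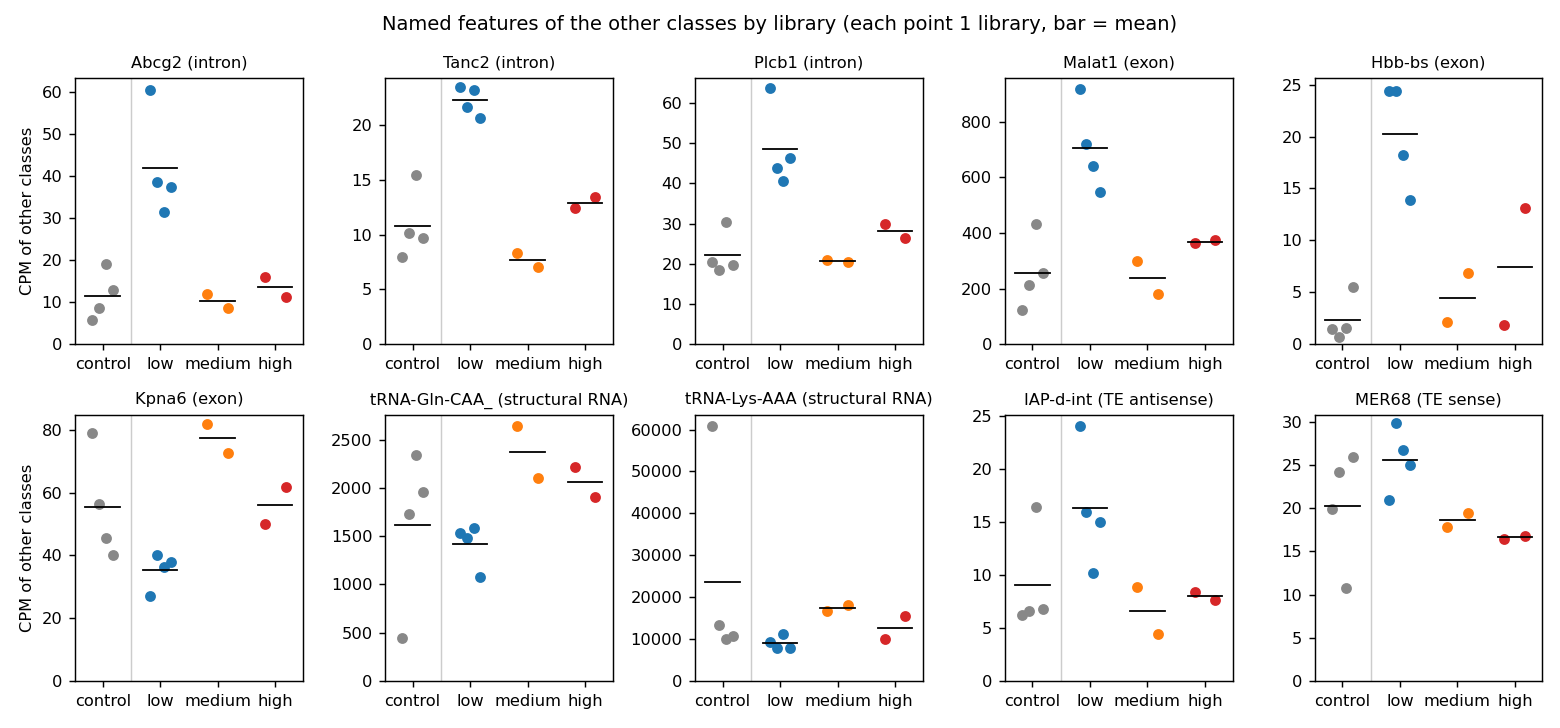
CPM of the non-miRNA classes (y, linear from 0) by dose group (x: control, low, medium, high) for 10 named features; each point is 1 library and each bar a group mean. Low-dose libraries lie above all medium-dose and high-dose libraries for Abcg2, Tanc2, Plcb1, Malat1, Hbb-bs, IAP-d-int and MER68; control 1 of tRNA-Lys-AAA, at 60787 CPM, stretches that axis.

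Globin transcripts, the defining RNAs of red blood cells, had their highest levels at low dose, without passing the test of single features. Hbb-bs, a beta globin, had 24.4, 24.4, 18.2 and 13.9 CPM at low dose, 2.12 and 6.85 CPM at medium dose and 1.82 and 13.1 CPM at high dose. The groups did not overlap, by a narrow margin at high dose 2, and the log2 difference was 1.80 ± 0.50 (SE, edgeR adjusted p = 0.904). The alpha globins Hba-a1 and Hba-a2, near-identical copies that may share reads, gave 1.88 and 1.86. All 5 tested members of the 10 listed red blood cell transcripts were higher, with a median of 1.80 against -0.11 over all exons, and none was called. Apart from the globins Hba-a1, Hba-a2, Hbb-bs and Hbb-bt, the only tested member was Slc25a37. Its log2 difference of 0.20 was the lowest of the 5. Against high dose alone 4 of the 5 were higher. Over the whole list, the summed level was 54.2 ± 14.3 CPM of all counts at low dose and 17.8 ± 10.9 CPM at medium and high dose (SD, n = 4 each). Most of the low-dose sum was globin: Hbb-bs 16.6, Hba-a1 11.5, Hba-a2 11.0 and Hbb-bt 9.88 CPM. The exact two-sided permutation p was 0.0286, the smallest that 4 against 4 can give, and 0.371 after adjustment over 13 marker lists. The controls summed to 4.23 to 16.8 CPM.

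The red blood cell miRNAs stood the same way. miR-451a, which matures through Ago2 in red cell precursors, had 1854, 1902, 2938 and 1689 CPM at low dose, 367 and 1339.8 CPM at medium dose and 146 and 2111 CPM at high dose. High dose 2 lay within the low-dose range. miR-451a had a mean of 1544 CPM over the exposed libraries and a log2 difference of 1.08 ± 0.74 (SE). A separate miRNA entry named mir-451a, outside the list, had a mean of 2988 CPM and a log2 difference of 0.64 ± 0.75 (SE). All 4 tested members of 7 listed were higher, with a median log2 difference of 1.29, and none was called by edgeR. These include miR-486a-5p and miR-486b-5p, near-identical miRNAs that share reads, so they are not independent members. The list summed to 672 ± 147 CPM of all counts at low dose and 293 ± 266 CPM at medium and high dose, with an exact permutation p of 0.0857. The part of red blood cells in the values of miR-486b-5p and the globins was not tested.

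Smooth muscle and fibroblast miRNAs had 6 of 6 tested members lower at low dose, with a median of -0.95 and 0 called. Their summed level was 1580.0 ± 358 CPM at low dose and 4103 ± 2243 CPM at medium and high dose (exact permutation p = 0.143). Medium dose 2, at 929.6 CPM, was below every low-dose library. Smooth muscle and fibroblast transcripts had 4 of 10 members higher and 6 lower, with sums of 51.4 ± 10.6 CPM at low dose and 49.8 ± 21.4 CPM at medium and high dose. Leukocyte transcripts summed to 39.3 ± 14.3 CPM at low dose and 31.0 ± 11.8 CPM at medium and high dose. Leukocyte miRNAs, the list that holds miR-150-5p, had 5 of 6 tested members higher with a median of 0.19, and 3 of 6 without medium dose 2. Its other members include miR-223-3p, a myeloid miRNA with a log2 difference of 0.28, and miR-146b-5p with -0.30. The list summed to 228 ± 121 CPM at low dose and 147 ± 94.1 CPM at medium and high dose (exact permutation p = 0.229). The largest part of this sum was miR-142a-5p, with 113 CPM at low dose and 71.3 CPM at medium and high dose. It was listed at 0 in 4 exposed libraries although well counted in the others, so the sum and its spread depend on these possible missing entries. Sperm and spermatid transcripts, the label's own cell type, summed to 758 ± 144 CPM at low dose and 850.5 ± 62.8 CPM at medium and high dose and were present in every library.

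**Figure D4:**
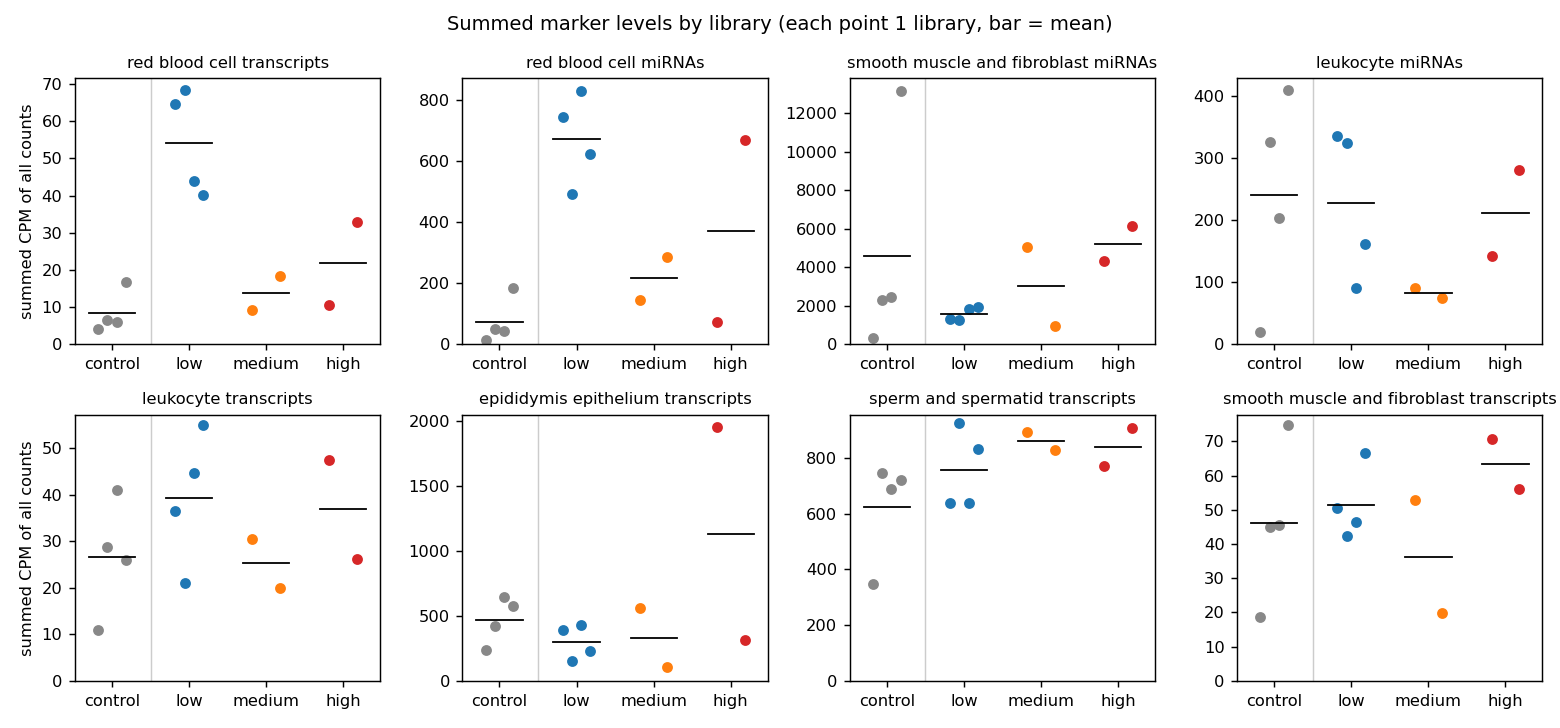
Summed CPM of all counts (y, linear from 0) of 8 marker lists by dose group (x: control, low, medium, high); each point is 1 library and each bar a group mean. Red blood cell transcripts sum to 40.1 to 68.3 CPM at low dose, above every other library, and high dose 1 stands apart at 1951 CPM of epididymis epithelium transcripts.

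Of 28 listed epididymal epithelium transcripts, 7 were tested, and all 7 were lower at low dose, with a median of -1.31 and 0 called. Untested members went both ways. Gpx5 averaged 1.90 CPM of all counts at low dose and 0.999 CPM at medium and high dose. Rnase12 averaged 0.421 CPM at low dose and 2.22 CPM at medium and high dose. Clu, encoding clusterin, had 53.8, 9.40, 36.9 and 19.7 CPM at low dose, 70.2 and 10.6 CPM at medium dose and 238 and 42.1 CPM at high dose. High dose 1 was the highest library and the others overlapped. Without high dose 1 the median over the same 7 was -0.18, with 6 lower.

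Other exon lists depended on high dose 1 as well. Cytosolic ribosomal protein transcripts had 75 of 76 tested members lower at low dose, with a median of -0.67 and 0 called. Without high dose 1, 35 of the 76 were lower and the median was 0.04. Targets of Nrf2, the transcription factor of the antioxidant response, had 19 of 20 lower with a median of -0.58; without high dose 1, 8 of 20 were lower and the median was 0.10. Sqstm1, a Nrf2 target and autophagy receptor, had 2.47, 2.86, 4.87 and 2.07 CPM at low dose, 4.58 and 3.52 CPM at medium dose and 14.0 and 4.10 CPM at high dose. Ethanol metabolism genes had 5 of 7 lower with a median of -1.12, and -0.08 without high dose 1. Adh1, the classical alcohol dehydrogenase, had 1.48, 0.817, 2.35 and 2.07 CPM at low dose, 3.70 and 0.370 CPM at medium dose and 12.5 and 1.37 CPM at high dose. High dose 1 was the highest library for both genes.

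**Figure D5:**
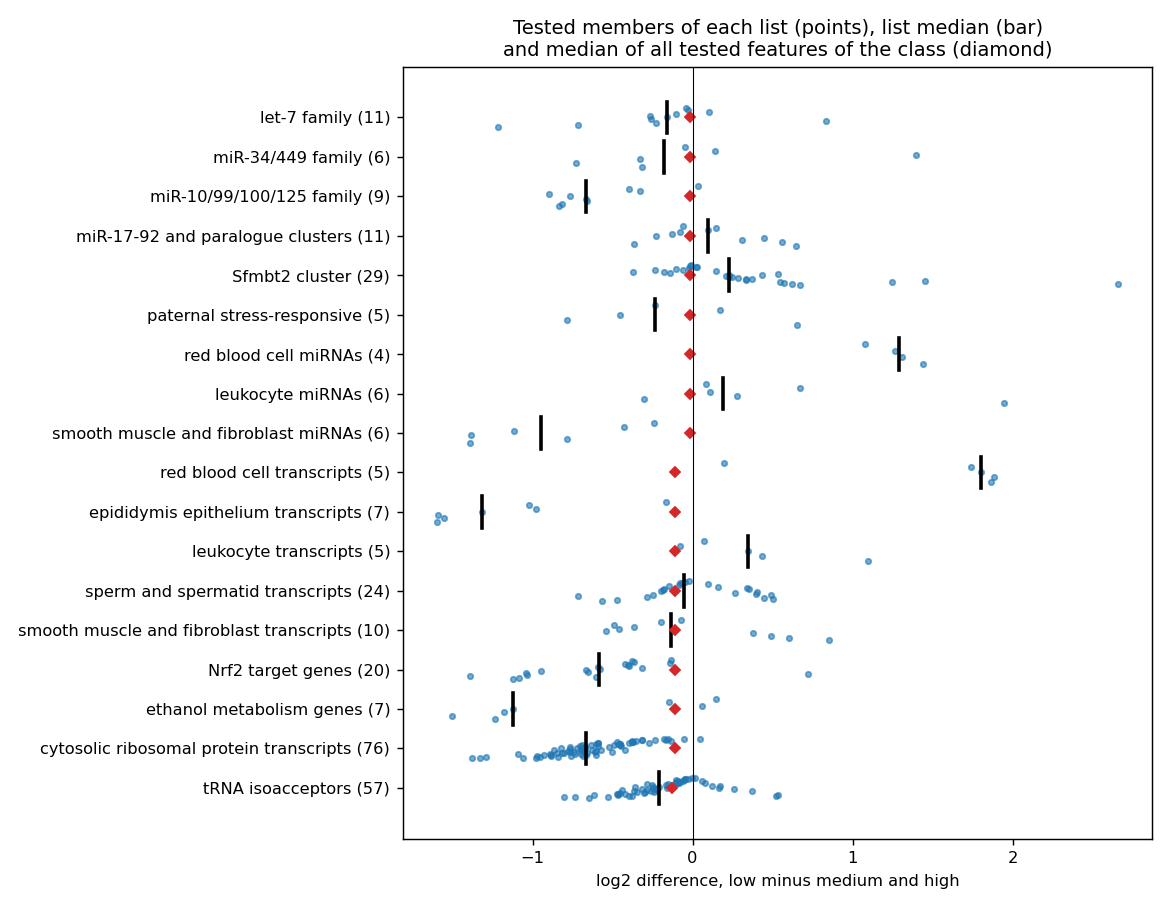
Log2 difference, low minus medium and high dose (x), of the tested members of 18 lists (y; number tested in brackets), with the list median as a bar and the median of all tested features of the class as a diamond. Red blood cell lists lie to the right of 0, and ribosomal protein, Nrf2 target and epididymis lists to the left in the comparison that includes high dose 1.

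No tRNA passed the test at the adjusted threshold. Among 76 structural RNAs, 12 had an unadjusted p under 0.05 in edgeR (15.8%), where 3.8 would fall by chance. In the list of tRNA isoacceptors, 2 were higher and 10 lower at this p. Without high dose 1, 2 were higher and 22 lower, and 1 of them was called. Of 57 tested tRNA isoacceptors, 47 were lower and 10 higher at low dose, with a median of -0.21 against -0.13 over all structural RNAs; without high dose 1 the split was the same, with a median of -0.25. Against medium dose alone 50 were lower and 7 higher, with a median of -0.31, and against high dose alone 31 were lower and 26 higher, with a median of -0.03. tRNA-Gln-CAA_ had 1535, 1477, 1581 and 1076 CPM at low dose, 2646 and 2103 CPM at medium dose and 2219.5 and 1903 CPM at high dose. Its groups did not overlap, and the log2 difference was -0.65 ± 0.16 (SE, edgeR adjusted p = 0.882). tRNA-Lys-AAA had 9168, 7884, 11248 and 7865 CPM at low dose, 16702 and 18054 CPM at medium dose and 9958 and 15528 CPM at high dose, overlapping at high dose 1. Without high dose 1 edgeR called it lower, at a log2 difference of -0.88 with an adjusted p of 0.0428. tRNA-Gly-GGY, the most abundant tRNA, averaged 95759 ± 8382 CPM at low dose and 98809 ± 28038 CPM at medium and high dose. The levels given are sums over the listed copies of a tRNA; in low dose 1, 10 of 26 copies of tRNA-Gly-GGY had counts within 1% of the highest, so the same reads may be counted at several copies.

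No repeat or piRNA cluster passed the test. Antisense reads of IAP-d-int, part of an endogenous retrovirus, averaged 16.3 ± 5.76 CPM at low dose and 7.32 ± 1.98 CPM at medium and high dose, with no overlap and a log2 difference of 1.15 ± 0.28. MER68, a long terminal repeat read in sense, averaged 25.6 ± 3.70 CPM at low dose and 17.6 ± 1.34 CPM at medium and high dose. Among 204 piRNA clusters, 170 were higher at low dose, none reached an unadjusted p of 0.05, and all log2 differences were under 1. Without high dose 1, 71 were higher and 133 lower, and against medium dose alone 42 were higher and 162 lower. pi-1700006A11Rik.1 averaged 27.0 ± 1.36 CPM at low dose and 21.7 ± 3.95 CPM at medium and high dose.

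The shares of the 8 RNA classes did not separate the groups. miRNAs took 15.9% ± 3.65 of counts at low dose and 15.8% ± 3.48 at medium and high dose (SD, n = 4 each), and piRNA clusters took 31.4% ± 2.89 at low dose and 30.0% ± 1.59 at medium and high dose. Every adjusted exact permutation p was 1.0, and the smallest that 1 class alone could reach was 0.229.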

How the data were processed

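Small RNA of 12 wild type sperm libraries was used, from 1 of 3 deposited tables. The authors deposited raw counts per annotated feature and class. The aligner, counter, genome build and rule for reads with several positions are not given in the sources used here. Transcript exons and introns were summed by gene symbol, and TEs and structural RNAs by name. The 8 exposed libraries were compared with edgeR 4.0.16 (R 4.3.3, filterByExpr, TMM within miRNAs and within all other features). The quasi-likelihood F test was used, with Benjamini-Hochberg over all tested features at 0.05. The code was first run on simulated data, where recovery of planted differences was required only at a spread below that of these data. That run therefore does not show which differences could be detected here. DESeq2 1.42.0 was an alternative. Shares and marker sums were tested with exact two-sided permutation over 70 splits (scipy 1.17.1).

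Named features were the 10 miRNAs with the lowest p and at least 10 CPM, the 10 most abundant miRNAs, the 3 lowest p in each other class among features of at least 10 CPM, and the 2 lowest p of described lists. miR-451a, Acer3, Gltscr2, Myo3a, tRNA-Val-GTG and tRNA-Gly-GGY were named after their values were seen. Members and lists were chosen with earlier results of these data known. In non-miRNA features, same-numbered libraries had correlated deviations from their group means (0.223 to 0.484). Differently numbered libraries were not compared in this way. In a group of 2 libraries the deviations mirror each other, so medium and high dose gave a single value of 0.477. These correlations therefore cannot show a shared batch, and the labels do not say what a number marks. The fit with the replicate number as a block is given where it changed a call.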

Additional observations from a re-analysis of the deposited data

Results flagged for a closer look

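Of 192 groups of 4 libraries examined, 13 held a library far from the other 3 by Dixon's ratio, where chance gives 9.6, about 1 in 20 groups. At low dose, low dose 4 was far above the rest for miR-486b-5p (1915 CPM, next 936) and miR-486a-5p (1923 CPM, next 896), near-identical miRNAs that share reads. Low dose 3 was high for miR-451a (2938 CPM) and low for miR-425-5p (17568 CPM). Low dose 1 was high for miR-25-3p (21549 CPM), low dose 2 high for miR-199a-5p (187 CPM) and low for let-7f-5p (16431 CPM). At medium and high dose, high dose 1 was far above the rest for let-7c-5p (61296 CPM), Sqstm1 exons (14.0 CPM) and the exon share of counts (9.60%). Medium dose 1 was far above the rest for Lyz2 exons (4.23 CPM), tRNA-Val-GTG (36758 CPM) and the summed liver miRNAs (139.7 CPM).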

How the results depend on the processing

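No miRNA was called under any alternative run. For the other features, DESeq2 called 1, the replicate block 1, no filter on low counts 60 (17 higher, 43 lower), leaving out high dose 1 and medium dose 2 together 1 (chosen after seeing the data), and leaving out single libraries 0 to 3, the 3 without high dose 1 being Abcg2, the Gltscr2 intron and tRNA-Lys-AAA. The block changed no other call; in miRNAs same-numbered libraries correlated from -0.0806 to 0.287.

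Single features near 0 changed sign: let-7a-5p (0.19 against medium only, 0.0844 with the block, 0.19 without both libraries), miR-669a-3p (-0.0259 against medium only), let-7c-5p (0.00862 with 12 libraries, 0.0651 with 3 dose groups, 0.63 against medium only, 0.37 without both libraries), miR-19b-3p (-0.0152 without both libraries), let-7f-5p (0.18 against medium only) and tRNA-Gly-GGY (0.24 against high only, 0.0775 with an ordered dose score, 0.0531 with the block). Leaving out single libraries gave miR-16-5p -0.18 to 0.0736, let-7a-5p -0.11 to 0.14, let-7c-5p -0.26 to 0.53, let-7f-5p -0.45 to 0.15, miR-19b-3p -0.0823 to 0.28 and tRNA-Gly-GGY -0.21 to 0.0871.

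List medians moved by more than 1 SD between replicates for the miR-15, miR-16 and miR-195 family (-0.45 with no filter; -0.49 to -0.13 leaving out libraries), paternal stress-responsive miRNAs (0.0012 with total counts; -0.48 to 0.15), brain miRNAs (0.24 with 12 libraries), the miR-30 family (-0.11 to 0.26), Nrf2 targets (-0.87 to 0.10), ribosomal proteins (-0.92 to 0.0366) and ribosomal RNAs (-0.0467 to 0.47). Wide spread kept other medians within 1 SD although they neared or crossed 0 without high dose 1: the let-7 family, the miR-10 and miR-125 group (0.02), epididymis transcripts (-0.18) and ethanol metabolism genes (-0.08).

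Share differences, in percentage points, changed sign for TE antisense (-0.0663 at 1 structural copy; -0.211 to 0.158 leaving out libraries), exons (0.423 against medium only; -0.605 to 0.461), introns (-0.0918 against high only, -0.0402 at 1 copy; -0.0763 to 0.219) and miRNAs (-0.346 against high only, -0.0826 at 1 copy; -1.65 to 1.26). Marker sums changed sign for skeletal muscle miRNAs (120.5 CPM against medium only; -112 to 35.5), liver miRNAs (17.0 against high only; -22.2 to 20.4), brain miRNAs (-84.8 against medium only; -174 to 108), spermatocyte transcripts (1.68 against high only; -6.18 to 2.79) and smooth muscle transcripts (-11.9 against high only; -8.40 to 8.53). The red blood cell transcript sum stayed higher at low dose (31.7 to 41.5 CPM leaving out libraries, 32.4 against high only, 40.4 against medium only), in designs whose smallest p is 0.0571 and 0.133. The causes were not tested.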

Other observations

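Several introns outside the naming rule showed groups that did not overlap, and they were picked after their values were seen. Acer3, encoding an alkaline ceramidase, averaged 12.97 ± 1.09 CPM at low dose and 6.17 ± 1.59 CPM at medium and high dose (SD, n = 4 each). Gltscr2, a nucleolar protein gene, averaged 129.7 ± 27.2 CPM at low dose and 259 ± 76.5 CPM at medium and high dose, with 98.9% of its reads in 1 intron. Myo3a, a myosin gene, averaged 1844 ± 219.8 CPM at low dose and 3032 ± 579 CPM at medium and high dose, with 99.9% of its reads in 1 intron. edgeR's adjusted p was between 0.62 and 0.703 for the 3 introns.

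tRNA-Val-GTG was among the 10 tRNA isoacceptors that stood higher at low dose, with 39054 ± 9192 CPM at low dose and 27193 ± 6455 CPM at medium and high dose and an edgeR adjusted p of 0.932. Col1a1 exons, encoding a collagen chain, averaged 8.23 ± 0.529 CPM at low dose and 4.59 ± 1.60 CPM at medium and high dose. Col1a1 had the lowest p of the 10 tested smooth muscle and fibroblast transcripts, of which 4 were higher at low dose and 6 lower.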
